A study of Mus musculus with 6 samples.

Results

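A set of 10 genes whose products detect foreign or misplaced nucleic acid, or pass that signal on, was followed in FAPs. These fibro/adipogenic progenitors are stromal cells that lie between muscle fibres and give rise to fat cells and fibroblasts. The genes were Tlr3, Tlr7, Tlr8 and Tlr9 (endosomal Toll-like receptors), Ifih1 and Dhx58 (cytosolic RNA helicases), Mavs (their adaptor), Eif2ak2 (a kinase), Zbp1 and Aim2. They were chosen by name, with earlier results of these data known, and taken as the probe sets annotated with exactly 1 of these symbols. Each of the 10 has 1 probe set, out of 19938 named genes on the array. The groups were FAPs of muscles given a vivo-morpholino (VMO) against polyadenylation sites (pA-VMO), FAPs given a VMO that targets a 5' splice site (5'ss-VMO) and FAPs given a control VMO. Such an oligomer carries a moiety that takes it into cells in vivo, where it pairs with an RNA and masks a processing site. The study concerned a transcript of Pdgfra that ends early at a polyadenylation site within an intron. All mice were wild-type C57Bl/6 males of 8 to 12 weeks whose tibialis anterior muscles had received 30 µL of 50% glycerol, the VMO 3 days later, and were sampled 2 days after that. There were 2 arrays a group, each with RNA from the FAPs of 4 mice combined. The sources used here do not give the sequences and doses of the VMOs. Every group had glycerol injury and a VMO, so a response common to all the oligomers cannot be seen in these comparisons.

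Nucleic acid sensors are sorted by place and by ligand. Endosomal Toll-like receptors read nucleic acid that a cell has taken up: Tlr3 double-stranded RNA, Tlr7 and Tlr8 single-stranded RNA, and Tlr9 DNA with unmethylated CpG. In the cytosol Ifih1 (also called MDA5) reads long double-stranded RNA and signals through Mavs on mitochondria, Dhx58 (LGP2) modulates that signal without being able to start it alone, Eif2ak2 (PKR) halts translation on binding double-stranded RNA, Zbp1 reads left-handed Z-form nucleic acid, and Aim2 reads double-stranded DNA and builds an inflammasome. Several of these genes are themselves induced by interferon.

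RefSeq promoter windows (GRCm38.p6, 250 bases before to 50 after a transcript start) were at hand for 7 of the 10 genes: Aim2, Ifih1, Mavs, Tlr3, Tlr9, Eif2ak2 and Tlr8. There was no window for Dhx58, Zbp1 and Tlr7, so the search leaves out the genes with the largest differences, described further on. They were searched on both strands for the core of the interferon-stimulated response element, GAAANNGAAA or TTTCNNTTTC on the other strand, and for the gamma-activated site TTCNNNGAA, which reads alike on both strands. The first motif was found in 2 of the 7 windows, those of Ifih1 and Eif2ak2, where 3.44% of 32851 windows of the same length hold it. The second was found in the windows of Eif2ak2 and Tlr8, and 8.30% of all windows hold it. The windows of Ifih1 (chr2:62646206-62646505), Eif2ak2 (chr17:78882523-78882822) and Tlr3 (chr8:45410331-45410630), all on the minus strand, are shown because the levels of these 3 genes followed one pattern across the groups, described further on. Capitals mark the response element core, at bases 283 to 292 for Ifih1 and 269 to 278 for Eif2ak2, both just after the transcript start at base 251. The Tlr3 window belongs to a start that lies 695 bases inside the annotated gene, and that of Aim2 to a start 71057 bases inside.
Ifih1: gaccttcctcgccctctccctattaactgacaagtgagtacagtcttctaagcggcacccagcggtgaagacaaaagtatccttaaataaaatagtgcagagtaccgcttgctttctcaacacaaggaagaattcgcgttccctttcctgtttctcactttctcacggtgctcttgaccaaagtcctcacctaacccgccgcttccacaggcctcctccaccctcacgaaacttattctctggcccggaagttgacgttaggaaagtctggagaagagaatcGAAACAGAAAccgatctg
Eif2ak2: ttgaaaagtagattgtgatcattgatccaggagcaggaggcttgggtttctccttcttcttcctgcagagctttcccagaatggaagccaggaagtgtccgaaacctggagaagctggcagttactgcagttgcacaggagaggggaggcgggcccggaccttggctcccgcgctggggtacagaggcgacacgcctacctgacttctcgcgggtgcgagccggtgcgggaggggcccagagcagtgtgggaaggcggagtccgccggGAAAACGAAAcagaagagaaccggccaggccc
Tlr3: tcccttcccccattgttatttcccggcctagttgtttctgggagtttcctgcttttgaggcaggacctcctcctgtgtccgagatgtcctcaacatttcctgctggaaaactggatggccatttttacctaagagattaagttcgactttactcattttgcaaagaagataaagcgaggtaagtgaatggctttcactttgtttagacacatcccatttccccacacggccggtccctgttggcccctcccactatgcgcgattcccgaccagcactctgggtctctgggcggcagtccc
A match describes the letters of the window and no binding was measured.

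Of the 19938 named genes, 14953 at or above a floor of 5.209 (the 25th percentile of gene means) were tested with limma, two-sided, with Benjamini-Hochberg adjustment over all of them. Of 13 FAP markers on the array, 13 lay above the floor, with the collagen gene Col1a1 at 13.14 on both pA-VMO arrays, 13.17 and 13.15 on the 5'ss-VMO arrays and 13.18 and 13.07 on the control arrays. Markers of other cells were also above the floor, among them 15 of 16 macrophage markers and 7 of 7 markers of satellite cells and later muscle-lineage cells. In such bulk samples, fewer cells of a type and less RNA per cell cannot be told apart. Precision is set by the few arrays: a difference had a median standard error of 0.07 (log2), and with 2 arrays on each side an exact permutation test reaches a two-sided p of 0.333 at best. The 2 arrays of a group are numbered as replicates in their titles, which do not say how the pools were made. If the pools are of separate mice, the p-values rest on the spread between pools. That spread is moderated by limma over all genes tested (3 residual and 6.06 prior degrees of freedom).

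Dhx58 and Zbp1 rose with 5'ss-VMO, and they were the members that passed the test in any comparison. In that comparison 2 of the 7 sensors tested were called higher and 0 lower (limma). Of all genes tested 0.502% were called higher and 0.0803% lower (0.582% in all). An unadjusted p under 0.05 was found for 5 of the 7 tested sensors and for 13.9% of all genes tested. The median difference over all 10 genes was 0.25 (log2), against 0.001 over all genes tested. With pA-VMO against control 0 sensors were called, 3 had an unadjusted p under 0.05 (11.4% of all genes) and the median was 0.04, against 0.01 over all genes. The share of all genes called was 0.00669%, all of it lower, with 0% higher. Between pA-VMO and 5'ss-VMO 0 sensors were called, 5 had an unadjusted p under 0.05 (15.9% of all genes) and the median was -0.21, against 0.004 over all genes. The share of all genes called was 0.0602%, made up of 0.0134% higher and 0.0468% lower. The 3 comparisons share arrays and are therefore not independent. Because the set was chosen with earlier results of these data known, its counts and medians beside those of all genes are a description. Tlr7, Tlr8 and Aim2 had means below the floor and were not tested, while the other 7 lay above it on all 6 arrays.

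**Figure D1:**
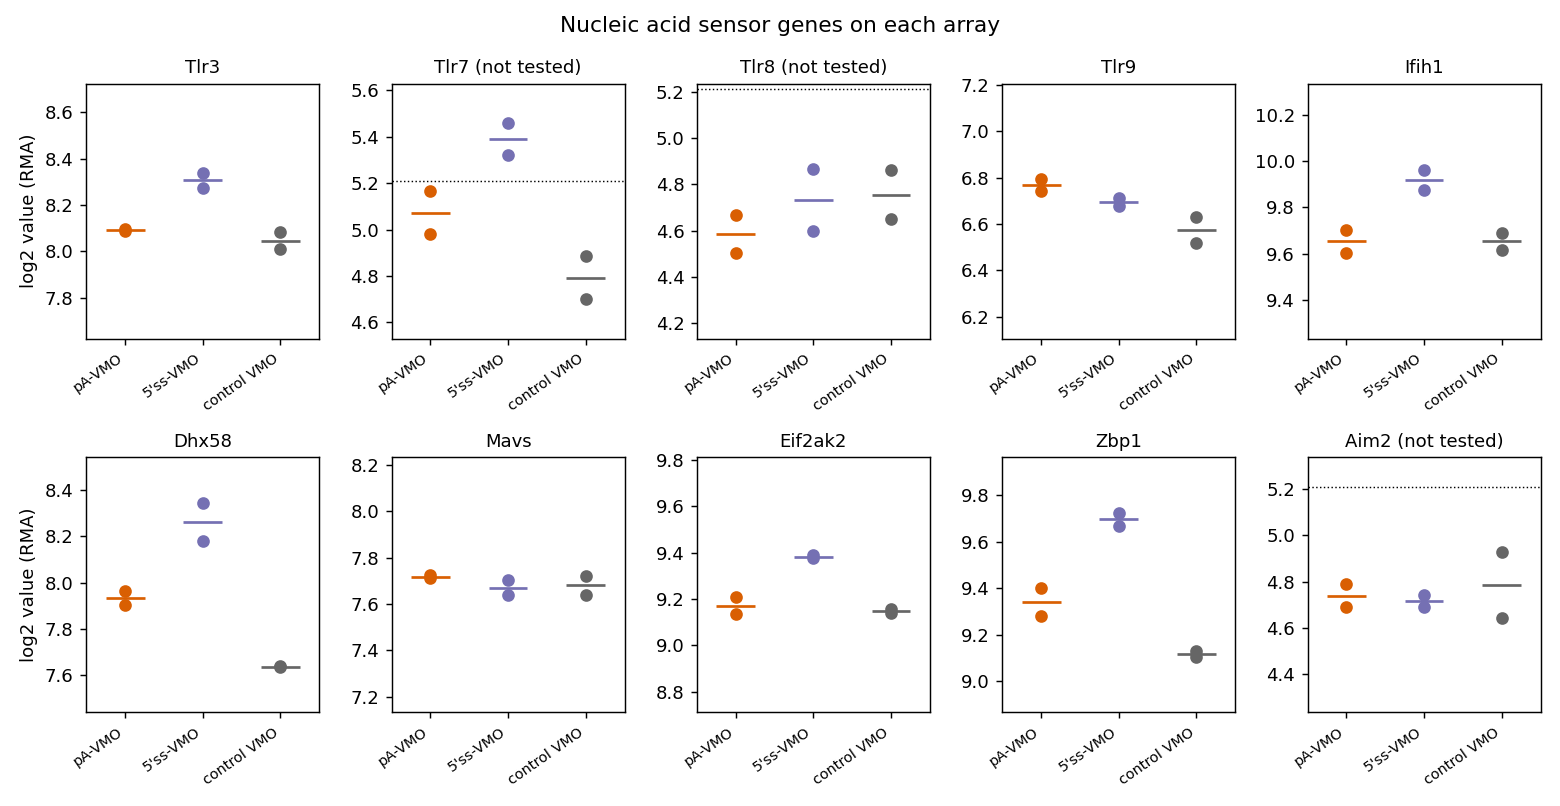
Log2 values (RMA) of the 10 sensor genes on each array, with pA-VMO, 5'ss-VMO and control VMO from left to right; points are arrays, bars are means of 2 arrays, every panel spans 1.1 log2 units and the dotted line is the floor of 5.209. The 5'ss-VMO points of Dhx58, Zbp1, Tlr3, Ifih1, Eif2ak2 and Tlr7 lie above all other points of their panels.

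Dhx58, the RNA helicase that modulates Ifih1 signalling, lay at 7.90 and 7.96 on the pA-VMO arrays, 8.18 and 8.35 on the 5'ss-VMO arrays, and 7.64 on both control arrays. No group overlapped another, with 5'ss-VMO highest and control lowest. It rose by 0.62 ± 0.07 with 5'ss-VMO over control (log2, SE, n = 2 arrays per group; 1.54-fold, 95% interval 0.46 to 0.79, adjusted p = 0.0105). With pA-VMO it differed from control by 0.30 ± 0.07 and did not pass (interval 0.13 to 0.46, adjusted p = 0.251). Its difference between pA-VMO and 5'ss-VMO was -0.33 ± 0.07 and did not pass either (adjusted p = 0.0991). The 5'ss-VMO call was lost without control replicate 1 (adjusted p = 0.11), control replicate 2 (0.0737) or the second 5'ss-VMO array (0.0656), with differences of 0.54 to 0.71 whichever of the 6 arrays was left out.

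Zbp1, which binds Z-form nucleic acid and can start necroptosis, lay at 9.28 and 9.40 on the pA-VMO arrays, 9.72 and 9.67 on the 5'ss-VMO arrays, and 9.10 and 9.13 on the control arrays. Its groups stood in the same order as those of Dhx58, again with no overlap. It rose by 0.58 ± 0.07 with 5'ss-VMO over control (1.5-fold, interval 0.42 to 0.74, adjusted p = 0.0105). It differed by 0.22 ± 0.07 between pA-VMO and control (adjusted p = 0.312) and by -0.36 ± 0.07 between pA-VMO and 5'ss-VMO (interval -0.51 to -0.20, adjusted p = 0.0718), and passed in neither. The 5'ss-VMO call was lost without control replicate 1 (adjusted p = 0.11), control replicate 2 (0.0637), the first 5'ss-VMO array (0.0678) or the second (0.0553), with differences of 0.55 to 0.61 throughout.

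Ifih1, Eif2ak2 and Tlr3 shared another pattern, in which the 5'ss-VMO arrays stood above and the other groups lay close together, but none of the 3 passed the test. Ifih1 lay at 9.60 and 9.70 for pA-VMO, 9.96 and 9.87 for 5'ss-VMO, and 9.62 and 9.69 for control VMO. Its difference between 5'ss-VMO and control was 0.26 ± 0.07 (interval 0.10 to 0.42, adjusted p = 0.169). Between pA-VMO and control it was 0.001 ± 0.07 (interval -0.16 to 0.16, adjusted p = 0.997), and between pA-VMO and 5'ss-VMO -0.26 ± 0.07 (adjusted p = 0.14). The pA-VMO and control arrays of Ifih1 overlapped, and both 5'ss-VMO arrays lay above them. Eif2ak2, the translation-blocking kinase, lay at 9.13 and 9.21 for pA-VMO, 9.38 and 9.39 for 5'ss-VMO, and 9.14 and 9.16 for control VMO. Its 5'ss-VMO arrays were nearly alike and above the rest, at a difference of 0.24 ± 0.06 from control (adjusted p = 0.173) and with pA-VMO -0.21 ± 0.06 from 5'ss-VMO (adjusted p = 0.174). Between pA-VMO and control Eif2ak2 differed by 0.02 ± 0.06 (interval -0.12 to 0.17, adjusted p = 0.927). With moderation of the variance by expression level, robust to outliers, Ifih1 and Eif2ak2 passed between 5'ss-VMO and control (adjusted p = 0.0377 and 0.047), and Ifih1, Dhx58 and Zbp1 passed between pA-VMO and 5'ss-VMO (0.0465, 0.0389 and 0.0109). Zbp1 also passed there with a floor at the 50th percentile (0.0326).

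Tlr3, the receptor for endosomal double-stranded RNA, lay at 8.10 and 8.09 for pA-VMO, 8.27 and 8.34 for 5'ss-VMO, and 8.08 and 8.01 for control VMO. The pA-VMO arrays were above the control arrays by less than the distance between the control arrays. Tlr3 differed by 0.26 ± 0.07 between 5'ss-VMO and control (interval 0.11 to 0.41, adjusted p = 0.149). The difference was 0.05 ± 0.07 between pA-VMO and control (adjusted p = 0.83) and -0.21 ± 0.07 between pA-VMO and 5'ss-VMO (adjusted p = 0.176).

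Tlr9, the receptor for CpG DNA, was the tested receptor with its highest values on the pA-VMO arrays. It lay at 6.79 and 6.74 for pA-VMO, 6.71 and 6.68 for 5'ss-VMO, and 6.52 and 6.63 for control VMO. The groups did not overlap, but no difference passed: 0.19 ± 0.07 between pA-VMO and control (interval 0.04 to 0.35, adjusted p = 0.354), 0.12 ± 0.07 between 5'ss-VMO and control (adjusted p = 0.463) and 0.07 ± 0.07 between pA-VMO and 5'ss-VMO (adjusted p = 0.642). Without control replicate 1 the difference between 5'ss-VMO and control was 0.07.

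Mavs, the mitochondrial adaptor of the RNA helicases, did not pass in any comparison. It lay at 7.71 and 7.73 for pA-VMO, 7.64 and 7.70 for 5'ss-VMO, and 7.72 and 7.64 for control VMO. The control arrays spanned nearly the whole range. The 95% interval of its difference was -0.16 to 0.14 between 5'ss-VMO and control, -0.11 to 0.19 between pA-VMO and control, and -0.10 to 0.20 between pA-VMO and 5'ss-VMO (adjusted p = 0.97, 0.872 and 0.776).

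The 3 genes below the floor differed among themselves. Tlr7, which senses single-stranded RNA, lay at 4.98 and 5.17 for pA-VMO, 5.32 and 5.46 for 5'ss-VMO, and 4.70 and 4.88 for control VMO. Its groups did not overlap, and its 5'ss-VMO arrays were the ones above the floor. With no floor, in a fit of all 19938 genes, Tlr7 differed by 0.60 ± 0.10 between 5'ss-VMO and control (1.52-fold, adjusted p = 0.094), 0.28 ± 0.10 between pA-VMO and control (adjusted p = 0.473) and -0.32 ± 0.10 between pA-VMO and 5'ss-VMO (adjusted p = 0.239). RMA compresses changes of dim probe sets. Tlr8, its neighbour on the X chromosome (chrX:167241123-167264329, with Tlr7 at chrX:167303380-167330574), lay at 4.50 and 4.67 for pA-VMO, 4.60 and 4.87 for 5'ss-VMO, and 4.65 and 4.86 for control VMO. Aim2, the DNA sensor of the inflammasome, lay at 4.69 and 4.79 for pA-VMO, 4.74 and 4.69 for 5'ss-VMO, and 4.64 and 4.93 for control VMO. For Tlr8 and Aim2 the groups overlapped in all 3 comparisons, and their differences ran from -0.17 to 0.02 (adjusted p from 0.589 to 0.958 with no floor). Aim2 belongs to the Ifi200 family, whose close copies its probes may also read.

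**Figure D2:**
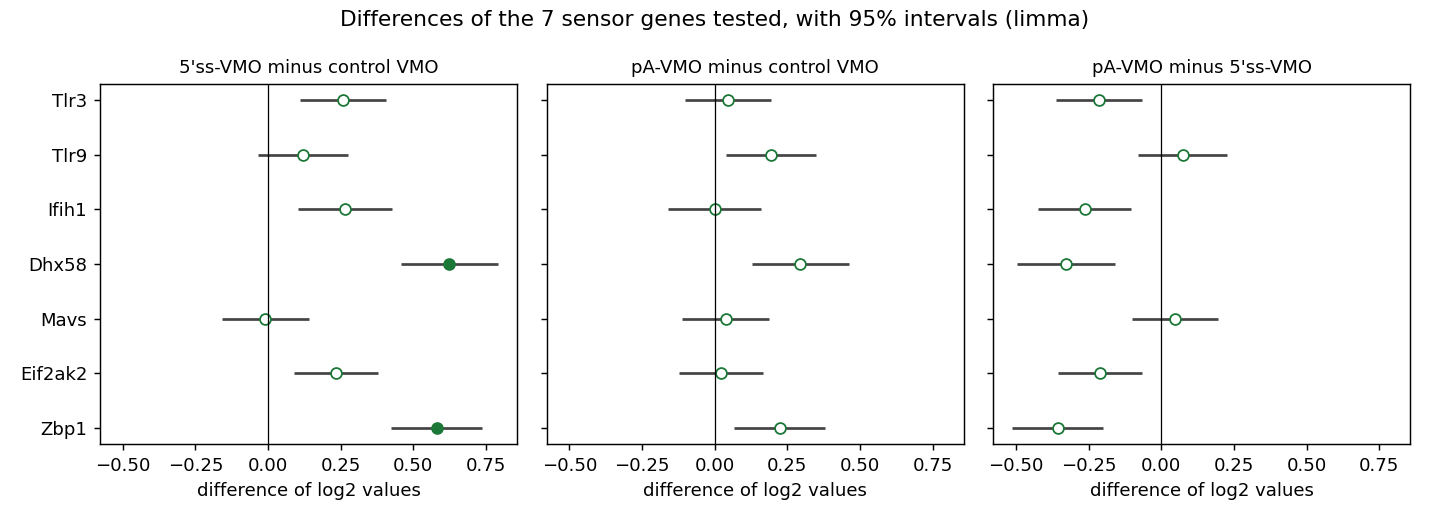
Differences of log2 values of the 7 sensor genes tested, for 5'ss-VMO minus control VMO, pA-VMO minus control VMO and pA-VMO minus 5'ss-VMO; lines are 95% intervals (limma, n = 2 arrays per group) and filled points passed an adjusted p of 0.05. Dhx58 (0.62) and Zbp1 (0.58) in the first panel are the filled points.

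Read by arrays, 7 of the 10 genes were higher on either 5'ss-VMO array than on any control array and 0 were lower. Of the 7 tested, 6 were higher and 0 lower, where 23.2% and 21.5% of all genes tested did so. For pA-VMO over control the counts were 5 above and 0 below (4 and 0 of the 7 tested), where 24.1% and 18.8% of all genes tested did so. For pA-VMO over 5'ss-VMO the counts were 2 above (Tlr9 and Mavs) and 6 below (2 and 5 of the 7 tested), where 25.5% and 23.7% of all genes tested did so. Dhx58, Zbp1, Tlr3 and the untested Tlr7 had 5'ss-VMO above pA-VMO above control with no overlap at either step. These are 3 of the 7 tested sensors, beside 2.94% of all genes tested. These counts too describe a set chosen with earlier results of these data known. For Tlr3 the lower of these steps was smaller than the distance between the control arrays.

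**Figure D3:**
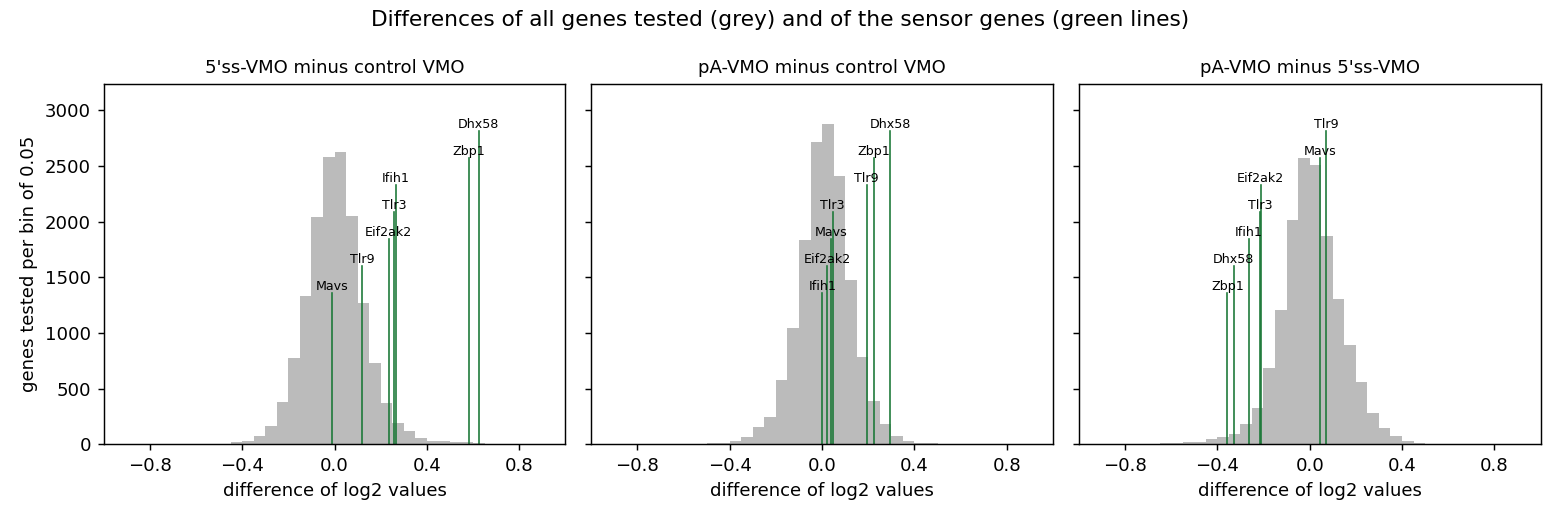
Number of genes tested per bin of 0.05 (grey bars) over the difference of log2 values, with the 7 sensor genes as green lines whose heights serve the labels only. In the first panel Dhx58 and Zbp1 stand in the right tail, Ifih1, Tlr3 and Eif2ak2 at 0.24 to 0.26, and Mavs at -0.01 within the bulk of genes.

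Among other genes tested, those nearest to Dhx58 over the 6 arrays, by the root mean square distance between values centred on each gene's mean, were Mpeg1 (0.0447), Rian (0.0599) and Oas1b (0.0607). Mpeg1 is named after its expression in macrophages. Those nearest to Zbp1 were Cxcl9 (0.025), Oas1b (0.034) and Trim30a (0.0362). Cxcl9, for example, lay at 12.00 and 12.09 for pA-VMO, 12.37 and 12.35 for 5'ss-VMO, and 11.81 and 11.85 for control VMO. Since it was chosen for its closeness to Zbp1, these values are a description.

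Other sensors of nucleic acid showed rises with 5'ss-VMO that passed the test. Of 18 on the array 16 were tested, and 3 rose and 0 fell; the median difference was 0.32, against 0.001 over all genes. All 3 belong to the oligoadenylate synthetase family, whose active members, on binding double-stranded RNA, make the second messenger that activates RNase L. Oas2 lay at 8.13 and 8.22 for pA-VMO, 8.62 and 8.63 for 5'ss-VMO, and 7.78 and 7.83 for control VMO. Oas2 rose by 0.82 ± 0.07 with 5'ss-VMO over control (1.77-fold, adjusted p = 0.00215), Oas1b by 0.63 ± 0.06 (adjusted p = 0.00551) and Oas1a by 0.58 ± 0.10 (adjusted p = 0.0415). Oas1a and Oas1b have close copies, so the share of each is uncertain. Oas2 was called whichever array was left out, Oas1b in all such fits but the one without control replicate 1 (adjusted p = 0.0673), and Oas1a was lost without control replicate 1 (0.237) or 2 (0.113) and without the first (0.0768) or the second (0.186) 5'ss-VMO array. Ddx58 (RIG-I), the helicase for RNA with a triphosphate end and the partner of Ifih1 upstream of Mavs, lay at 9.58 and 9.57 for pA-VMO, 9.74 and 9.78 for 5'ss-VMO, and 9.44 on both control arrays. Its groups did not overlap, and its difference between 5'ss-VMO and control was 0.32 ± 0.06 (adjusted p = 0.0707). With pA-VMO against control 0 of the 16 were called (median 0.14), and between pA-VMO and 5'ss-VMO 0 were called (median -0.12), with Oas2 at -0.45 (adjusted p = 0.0626); the counts at an unadjusted p under 0.05 were 5 and 7.

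The transport and adaptor genes had 1 call among 30 tested. Irf7, the transcription factor that acts downstream of Tlr7 and Tlr9, lay at 10.54 and 10.73 with pA-VMO, 10.93 on both 5'ss-VMO arrays, and 10.39 and 10.45 with control VMO, and rose by 0.51 ± 0.08 with 5'ss-VMO over control (adjusted p = 0.0283). The call was lost without control replicate 1 (adjusted p = 0.188) or 2 (0.113) and without the first (0.119) or second (0.147) 5'ss-VMO array. The median of the list was 0.06. Unc93b1, which carries endosomal Toll-like receptors to their place, differed by 0.01 ± 0.06 between 5'ss-VMO and control (adjusted p = 0.944), and the kinase Tbk1 by 0.09 ± 0.07 (adjusted p = 0.595). With pA-VMO against control 0 were called (3 with an unadjusted p under 0.05), the ubiquitin ligase Traf6 at -0.30 ± 0.07 (adjusted p = 0.239), Irf7 at 0.22 ± 0.08 (adjusted p = 0.357) and Myd88, the adaptor of Tlr7 and Tlr9, at -0.15 ± 0.06 (adjusted p = 0.412). Both pA-VMO arrays of Traf6 (7.52 and 7.64) lay below the 5'ss-VMO (7.89 and 7.87) and control arrays (7.88 and 7.87), and between pA-VMO and 5'ss-VMO 0 of the 30 were called (7 with an unadjusted p under 0.05; Traf6 -0.30, adjusted p = 0.0991).

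Downstream of Zbp1 and Aim2, 1 of 11 genes of the inflammasome and of necroptosis was called. Mlkl, the pore-forming executor of necroptosis, lay at 8.86 and 8.89 for pA-VMO, 9.05 and 9.04 for 5'ss-VMO, and 8.61 and 8.72 for control VMO, and rose by 0.38 ± 0.07 with 5'ss-VMO over control (adjusted p = 0.048). Ripk3, the kinase between Zbp1 and Mlkl, differed by 0.04 ± 0.07 (adjusted p = 0.846), Casp1, the inflammasome protease, by 0.15 ± 0.11 (adjusted p = 0.588) and its substrate Il1b by 0.64 ± 0.11 (adjusted p = 0.0524). Mlkl missed the threshold in each of the 6 fits without 1 array, with the highest adjusted p of 0.237 without control replicate 1 and the lowest of 0.0794 without either pA-VMO array. The median of the list was 0.14. With pA-VMO against control and between pA-VMO and 5'ss-VMO 0 of the 11 were called (limma), and 2 and 1 had an unadjusted p under 0.05.

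Of 15 genes around Eif2ak2 and the integrated stress response 0 were called in any comparison (limma; 4, 3 and 3 with an unadjusted p under 0.05 for 5'ss-VMO against control, pA-VMO against control and pA-VMO against 5'ss-VMO). Of all genes tested 13.9%, 11.4% and 15.9% had such an unadjusted p in these comparisons, and 0.582%, 0.00669% and 0.0602% were called. The counts of every list here are to be read beside these shares. Adar, which edits double-stranded RNA, differed by 0.36 ± 0.06 between 5'ss-VMO and control (limma, adjusted p = 0.0534). Ddit3, a stress-response transcription factor, lay at 7.80 and 7.83 for pA-VMO, 8.22 and 8.11 for 5'ss-VMO, and 7.96 and 8.00 for control VMO, a difference of -0.35 ± 0.07 between pA-VMO and 5'ss-VMO (adjusted p = 0.0718). Of 11 genes that clear nucleic acid 0 were called in any comparison (3, 1 and 1 with an unadjusted p under 0.05 in the same order), with the nucleotide hydrolase Samhd1 at 0.32 ± 0.07 (adjusted p = 0.101) and the exonuclease Pld4 at 0.37 ± 0.08 (adjusted p = 0.111) between 5'ss-VMO and control. Of 4 genes of surface Toll-like receptors and their partners 0 were called (3, 3 and 0). Tlr4, which senses lipopolysaccharide, lay at 7.49 and 7.54 for pA-VMO, 7.63 and 7.58 for 5'ss-VMO, and 7.80 and 7.77 for control VMO, so that both reagents lay below control (-0.27 ± 0.06 for pA-VMO, adjusted p = 0.251, and -0.18 ± 0.06 for 5'ss-VMO, adjusted p = 0.273).

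Among interferons and their receptors 0 of 9 tested genes were called in any comparison (2, 1 and 1 with an unadjusted p under 0.05 in the same order). The genes of type I interferon Ifnb1, Ifna2 and Ifna4 had means below the floor. Ifnb1 lay at 5.14 and 5.32 for pA-VMO, 5.05 and 4.93 for 5'ss-VMO, and 4.97 and 5.19 for control VMO, so its 5'ss-VMO arrays were not above the others. Ifng, little above the floor, lay at 5.60 and 5.44 for pA-VMO, 5.56 and 5.54 for 5'ss-VMO, and 5.31 and 5.27 for control VMO. Ifne went the other way, at 5.63 and 5.61, 5.48 and 5.52, and 5.73 and 5.69 in this order. Of the 9 tested, 5 had a positive difference between 5'ss-VMO and control. Meanwhile, 9 of 17 other interferon-stimulated genes rose with 5'ss-VMO over control and 0 fell, with a median of 0.49, while 0 were called with pA-VMO (median 0.10; 6 with an unadjusted p under 0.05) or between pA-VMO and 5'ss-VMO (median -0.37; 16). Each of these 9 missed the threshold without control replicate 1 (adjusted p from 0.0673 to 0.16) and without either 5'ss-VMO array (0.054 to 0.16), and 7 of them without control replicate 2, where Mx1 and Ifit3 passed. Over the 7 lists without the interferon-stimulated genes, 5 of 96 genes tested rose with 5'ss-VMO and 0 fell, where 0.502% of all genes tested were called higher. The 5 were Oas1a, Oas1b, Oas2, Irf7 and Mlkl. Only the list of that name was left out, so these 7 lists can still hold genes that interferon induces. Leaving out an array lowered that count of 5 to 1 (control replicate 1), 2 (control replicate 2, and likewise the first 5'ss-VMO pool) and 3 (second 5'ss-VMO pool).

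A few markers of other cells passed the test in the same comparison as Dhx58 and Zbp1. Of 15 macrophage markers tested 2 rose with 5'ss-VMO over control and 0 fell (C1qc by 0.50, adjusted p = 0.0249, and C1qa by 0.39, adjusted p = 0.0472), and the median was 0.33. Of the 15, 13 had a positive difference. For 13 both 5'ss-VMO arrays lay above both control arrays, as for 23.2% of all genes tested. Cx3cr1 was the one with both 5'ss-VMO arrays (6.45 and 6.37) below both control arrays (6.60 and 6.54). The summed linear signal of the 16 macrophage markers ran from 2167 to 2257 with pA-VMO, 2347 to 2348 with 5'ss-VMO and 1724 to 2072 with control VMO. No marker is at 0 on this scale; Cd163 was the macrophage marker below the floor. Endothelial markers had a sum of 472 to 500 with pA-VMO, 536 to 539 with 5'ss-VMO and 409 to 459 with control VMO (Cdh5 rose by 0.70 with 5'ss-VMO over control, adjusted p = 0.00551; 6 of 7 were tested). The endothelial median was 0.26 between 5'ss-VMO and control, with 4 of the 6 positive and 1 called, and Egfl7 lay at 6.33 on both 5'ss-VMO arrays, against 6.40 and 6.39 on the control arrays. The list of 7 satellite cell markers also holds Chrna1, Des and Mymk, which are more typical of later muscle-lineage cells. Its sum was 660 to 697 with pA-VMO, 837 to 894 with 5'ss-VMO and 640 to 712 with control VMO. Between 5'ss-VMO and control all 7 had a positive difference, with a median of 0.35 (Chrna1 rose by 0.62, adjusted p = 0.0283, limma). Both 5'ss-VMO arrays lay above both control arrays for 5 of the 7, as for 23.2% of all genes tested. Pax7 (6.70 and 6.65 with 5'ss-VMO, 6.39 and 6.72 with control VMO) and Cdh15 (6.78 and 6.84, and 6.66 and 6.80) overlapped. C1qa was not called in any fit without 1 array (adjusted p up to 0.234 without control replicate 1). C1qc and Cdh5 were lost without control replicate 1 (0.16 and 0.0659) or 2 (0.0622 and 0.0507), C1qc also without the first (0.0963) or second (0.136) 5'ss-VMO array, and Chrna1 without control replicate 1 (0.201), control replicate 2 (0.105) or the first 5'ss-VMO array (0.103). Macrophages express Tlr7, Tlr8, Tlr9 and Aim2, and the part of these cells in the sensor differences was not tested.

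Plasmacytoid dendritic cells carry Tlr7 and Tlr9. The sum of 6 of their markers was 641 to 674 with pA-VMO, 634 to 651 with 5'ss-VMO and 637 to 657 with control VMO. Siglech lay at 5.45 and 5.34, 5.29 and 5.36, and 5.46 and 5.62 on the arrays of these groups. The largest values in the sum were those of Il3ra, at 8.58 and 8.45 with 5'ss-VMO and 8.45 and 8.49 with control VMO. Next came Cox6a2, at 6.76 and 6.90 with 5'ss-VMO and 6.78 on both control arrays. The sum mostly follows these genes, so it does not show the level of plasmacytoid dendritic cells. Siglech and Spib lay little above the floor and 1 of the 6 markers below it. The part of these cells in the sensor differences was not tested. B cell markers had a sum of 201 to 207 with pA-VMO, 187 to 191 with 5'ss-VMO and 184 to 192 with control VMO, and 2 of 5 lay below the floor. For conventional dendritic cells the sums were 334 to 337, 299 to 314 and 303 to 321, for T and NK cells 253 to 274, 244 to 250 and 254 on both arrays, and for neutrophils 190 to 196, 183 to 186 and 177 to 187, each for pA-VMO, 5'ss-VMO and control VMO in this order. Below the floor were 2 of 7, 4 of 7 and 5 of 7 of these markers. The FAP markers had a sum of 44579 to 45121 with pA-VMO, 43149 to 45504 with 5'ss-VMO and 46080 to 47673 with control VMO. Between 5'ss-VMO and control 1 of the 13, Col1a1, had a positive difference, and the median was -0.09. For pA-VMO against control 2 of the 13 had a positive difference, and the median was -0.09. Of the 13, Dpp4, a surface peptidase, fell by 0.52 with 5'ss-VMO against control (adjusted p = 0.0318), and lost that call without control replicate 1 (0.213) or 2 (0.109) and without the first (0.145) or second (0.106) 5'ss-VMO array.

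**Figure D4:**
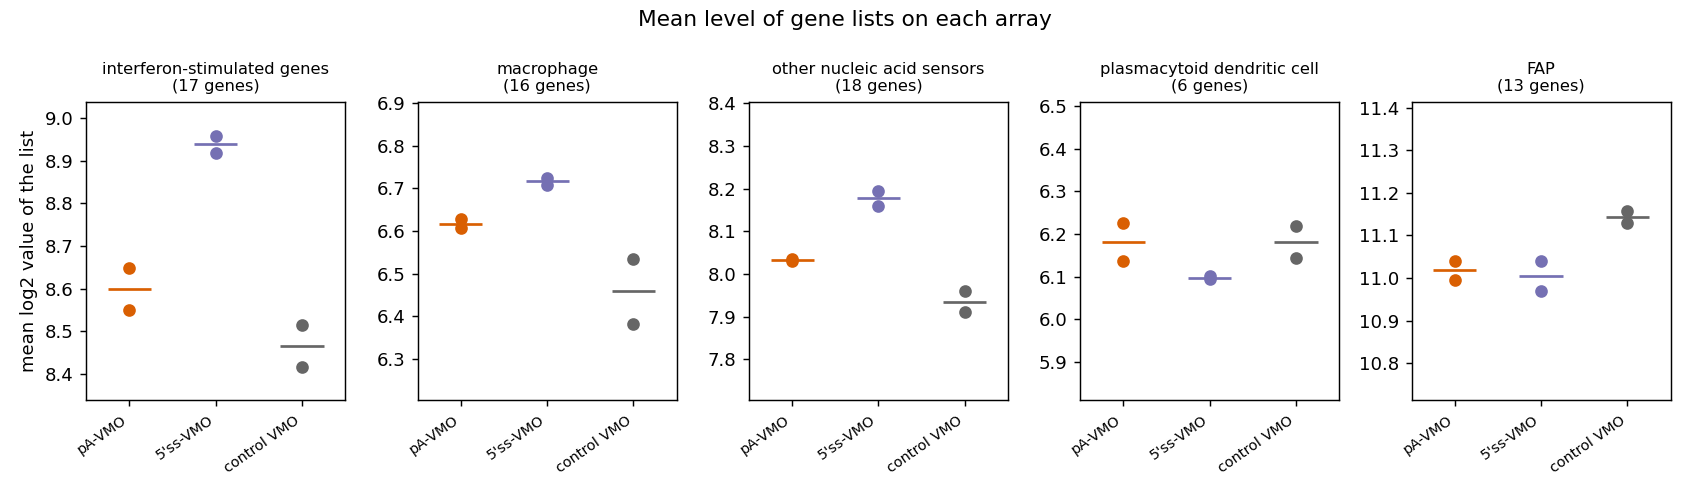
Mean log2 value of 5 gene lists on each array, with pA-VMO, 5'ss-VMO and control VMO from left to right; points are arrays, bars are means of 2 arrays, and every panel spans 0.7 log2 units. The interferon-stimulated, macrophage and other sensor lists are highest on the 5'ss-VMO arrays, the plasmacytoid dendritic cell list is not, and the FAP list is highest on the control arrays.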

How the data were processed

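RNA of 6 pooled FAP samples, 2 per group, was hybridised to Affymetrix Mouse 1.0 ST arrays, per the labels. The deposited log2 values were made by the authors with RMA in Affymetrix Expression Console, per the submitters' processing notes; the sources used here give neither settings nor version. Because RMA equalises the distributions, differences in total RNA per cell are invisible. Values ran from 1.38 to 13.5. No scanner files or scan dates were used, so no batch could be tested.

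Of 35556 probe sets, 21789 have 1 symbol in the platform annotation, 1621 several and 12146 none; the last 2 kinds were not named. The probe set with the highest mean stood for each of 19938 genes, and 14953 at or above the 25th percentile (5.209) were tested. A limma model (version 3.58.1, R 4.3.3) with 1 mean per group used all 6 arrays (3 residual and 6.06 prior degrees of freedom). On simulated data for 5'ss-VMO against control with 14953 genes, the fit recovered 84.5% of genes changed by 0.5 (log2) and 99.9% of those changed by 1, with 5.36% of calls false. Each of 10 runs changed 200 genes, with independent normal errors whose variances followed the model that limma assumes. The simulation held no batch, cell mixture or correlation between genes, so these shares do not measure the reliability of the calls on the arrays. Coordinates are GRCm38.p6 (RefSeq). The members and lists were chosen with earlier results of these data known. Named were all members, called list genes with up to 2 of smallest p per list and comparison, and the 3 genes nearest each called member; Ddx58, Unc93b1, Tbk1, Ripk3, Casp1, Myd88, the interferon genes and the marker genes were named after their values were seen. Alternatives were the floor, the replicate number as a block, the mean of probe sets, median centring, another variance model, only the 4 arrays compared, and leaving out each array.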

Additional observations from a re-analysis of the deposited data

How the results depend on the processing

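Over all alternatives Dhx58 and Zbp1 kept their direction between 5'ss-VMO and control. With the array left out in turn, in fits that assume the lone array of a group to vary like the others, the sensors called there numbered 0 to 2, all genes called 8 to 76 and pathway genes 1 to 5. The same fits gave 0 to 2 genes for pA-VMO against control and 1 to 18 for pA-VMO against 5'ss-VMO. With variance moderated by expression level and robustly, 4 sensors, 12 pathway genes and 265 genes were called for 5'ss-VMO, 1 pathway gene and 49 genes for pA-VMO, and 3 sensors, 6 pathway genes and 186 genes between the reagents. With no floor the counts were 2 pathway genes and 24 genes for 5'ss-VMO, 0 genes for pA-VMO and 3 genes between the reagents. With the floor at the 50th percentile they were 11 pathway genes and 181 genes for 5'ss-VMO, and 1 sensor, 2 pathway genes and 102 genes between the reagents. Median centring gave 3 pathway genes for 5'ss-VMO, and the mean of probe sets 15 genes between the reagents. The causes of these shifts were not tested, other than that fewer or more genes and arrays enter.

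Same-numbered arrays did not deviate together (correlations over genes of 0.0207, -0.0345 and -0.102), so the numbers were not taken as pairs. With the replicate block the sensors called were 2, 0 and 0 for 5'ss-VMO against control, pA-VMO against control and pA-VMO against 5'ss-VMO, the pathway genes called were 5, 0 and 0, and all genes called were 90, 1 and 23. A crossed replicate block for pA-VMO against control, added after the data were seen, called 0 sensors, 0 pathway genes and 1 gene.

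Small differences that changed sign were those of Mavs between 5'ss-VMO and control (-0.0485 to 0.0305 over the fits without 1 array), Mavs, Ifih1 and Eif2ak2 between pA-VMO and control (-0.00198 to 0.077, -0.0485 to 0.0505 and -0.0137 to 0.0604), and Ifih1 there with median centring (-0.00498). The fits that leave out an array gave -0.21 to 0.07 for Aim2 between 5'ss-VMO and control, -0.19 to 0.10 between pA-VMO and control and -0.0283 to 0.0738 between pA-VMO and 5'ss-VMO, and -0.155 to 0.111 for Tlr8 between 5'ss-VMO and control. Signal over background limits Tlr7, Tlr8 and Aim2.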
